A study of Mus musculus with 4 samples.

Results

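The mammalian circadian clock is a loop of gene activators and their own repressors, and 10 of its genes were followed here in single nuclei of the mouse hypothalamus: the period genes Per1, Per2 and Per3, the cryptochromes Cry1 and Cry2, the activator Clock, the nuclear receptors Nr1d1 and Nr1d2, the output factor Dbp and the repressor Ciart. They were chosen by symbol, and all 10 were among the 33696 genes counted. The study gave wild-type C57BL/6J mice, labelled as conventional or SPF, either imidazole propionate (ImP), which gut bacteria make from histidine, at 350 µg per day, or vehicle. ImP was dissolved in water with 1% DMSO. Both were given for 2 weeks from an osmotic pump in the peritoneal cavity, which took surgery under isoflurane with lidocaine and buprenorphine, and mice were perfused before the hypothalamus was dissected and frozen. There were 4 libraries, called ImP 3 and ImP 4, against vehicle 1 and vehicle 2. The labels do not state age, clock time of sampling or whether a library is 1 animal. The p-values of the fits thus rest on the spread between libraries, pooled over genes, which may be technical.

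CLOCK and its partner BMAL1, listed here under its older symbol Arntl, bind E-boxes (CACGTG) and switch on the Per, Cry, Nr1d1, Nr1d2, Dbp and Ciart genes. PER and CRY proteins then block CLOCK and BMAL1, NR1D1 and NR1D2 (REV-ERBα and REV-ERBβ) repress Arntl at ROR elements (here the core TAGGTCA), and DBP acts through D-boxes (TTATGTAA or TTACGTAA). The suprachiasmatic nucleus, which lies in the hypothalamus, is the master pacemaker, and in most tissues Nr1d1 and Dbp transcripts peak before those of Per2 and Cry1.

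RefSeq promoters of build GRCm38.p6, from 250 bases before to 50 after a gene's start, were at hand for 9 of the 10 genes, Per2 having no entry. Among them 3 genes held an E-box and 1 held D-boxes, on either strand, and the 4 upstream stretches that held a match are given to show where these letters stand. They run 5′ to 3′ on the gene's strand, with the matches in capitals, at chr11:69098699-69098948 (+) for Per1 (the first of 2 starts), chr10:85185055-85185304 (-) for Cry1, chr3:95882229-95882478 (-) for Ciart and chr4:151044666-151044915 (-) for Per3.
Per1: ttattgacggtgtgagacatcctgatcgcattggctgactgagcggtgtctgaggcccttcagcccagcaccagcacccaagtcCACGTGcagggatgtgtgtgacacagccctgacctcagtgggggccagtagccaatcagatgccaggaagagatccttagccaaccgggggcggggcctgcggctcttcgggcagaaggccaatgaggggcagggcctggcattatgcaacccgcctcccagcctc
Cry1: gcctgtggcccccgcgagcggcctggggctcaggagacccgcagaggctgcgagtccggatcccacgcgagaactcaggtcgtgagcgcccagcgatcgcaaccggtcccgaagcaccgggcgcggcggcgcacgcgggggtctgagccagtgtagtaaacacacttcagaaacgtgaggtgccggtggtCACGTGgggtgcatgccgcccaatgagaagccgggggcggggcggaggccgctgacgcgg
Ciart: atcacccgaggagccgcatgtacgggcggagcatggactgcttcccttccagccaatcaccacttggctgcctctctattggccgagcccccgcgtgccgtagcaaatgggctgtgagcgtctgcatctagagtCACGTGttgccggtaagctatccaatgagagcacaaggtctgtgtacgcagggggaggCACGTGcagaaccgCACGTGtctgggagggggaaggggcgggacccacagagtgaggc
Per3: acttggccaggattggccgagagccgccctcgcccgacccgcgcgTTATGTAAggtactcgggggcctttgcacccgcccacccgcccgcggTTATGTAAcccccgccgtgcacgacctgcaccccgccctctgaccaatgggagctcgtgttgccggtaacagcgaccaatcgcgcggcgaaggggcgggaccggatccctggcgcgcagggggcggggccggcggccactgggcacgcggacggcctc
Per1 had its E-box at -166 to -161 and Cry1 at -60 to -55 from the start. Ciart had 3 E-boxes, at -116 to -111, -58 to -53 and -44 to -39, and Per3 had 2 D-boxes, at -205 to -198 and -158 to -151. CACGTG was present in 7.15% of 32851 promoter entries, TTATGTAA in 0.938%, TTACGTAA in 0.119% and TAGGTCA in 2.61%. Promoters with 3 or more E-boxes made up 0.0883% and those with 2 or more D-boxes 0.0244%. CACGTG, TTATGTAA and TTACGTAA overlap none of each other here, and no window of the 9 genes held TAGGTCA. A match in these letters is no evidence of a bound site, and the absence of one says nothing of bases outside the window.

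Unique molecular identifiers (UMIs, 1 per captured transcript) totalled 48060194 to 51945297 per library. After a filter on genes and mitochondrial UMIs, 14757 and 15725 nuclei were kept in ImP 3 and ImP 4, against 10917 and 13023 in vehicle 1 and vehicle 2. Median UMIs per kept nucleus were 2852 and 2820 in the ImP libraries and 3757 and 3179 in the vehicle libraries, so both ImP libraries were shallower per nucleus. Nuclei were assigned to a class by counting class markers, none of them a clock gene, and 84.3% to 88.9% of kept nuclei received one. Of ImP 4, 807 nuclei carried pituitary markers, against 7 in ImP 3, 8 in vehicle 1 and 3 in vehicle 2. Growth hormone (Gh) transcripts were present in 97.2% of all kept ImP 4 nuclei. Pairs of libraries shared 35 to 67 barcodes, at most 0.513% of a library. Levels below are in CPM, the gene's UMIs summed over a class in a library per 1000000 UMIs of that sum. Levels of different genes are not compared, except that the index of the period genes against Dbp and Nr1d1 subtracts them to compare libraries. With summed counts, fewer cells expressing a gene and less RNA per cell cannot be told apart.

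Astrocyte-gated nuclei (462 to 493 per library) carried higher levels of 9 of the 10 clock genes than neuron-gated nuclei (7810 to 10469 per library), and a lower level of Clock. All 10 passed an adjusted p of 0.05 by edgeR's quasi-likelihood test with library as a block and Benjamini-Hochberg adjustment. Of all 19831 genes tested, 50.7% passed, 22.1% higher and 28.6% lower in astrocytes, so such differences were common, and 9 of 10 higher stands against that share. The median log2 ratio over the members was 1.39.

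Nr1d1, the haem-binding repressor REV-ERBα, had the largest ratio of the members. It measured 25.1, 28.6, 28.1 and 31.3 CPM in astrocytes of ImP 3, ImP 4, vehicle 1 and vehicle 2, against 4.90, 5.20, 4.50 and 4.69 CPM in neurons of those libraries. The lowest astrocyte value was thus well above the highest neuron value, with a log2 ratio of 2.47 ± 0.24 (SE, adjusted p = 1.09e-23). Nr1d1 overlaps the thyroid hormone receptor gene Thra on the other strand, and whether counting used strand is not given in the sources used here.

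The 3 period genes, the negative arm of the loop, were all higher in astrocytes. Per2 averaged 52.2 ± 5.01 CPM in astrocytes and 12.9 ± 1.41 CPM in neurons (SD, n = 4 libraries each; log2 ratio 1.93 ± 0.17, SE). Per3 averaged 167 ± 21.6 CPM in astrocytes and 49.3 ± 2.93 CPM in neurons (log2 ratio 1.67 ± 0.10, SE), and Per1, which also responds to cAMP and calcium signals, 37.6 ± 7.92 CPM in astrocytes and 12.3 ± 0.947 CPM in neurons (log2 ratio 1.52 ± 0.19, SE). For each of the 3 genes every astrocyte value lay above every neuron value. Adjusted p-values ranged from 1.35e-59 for Per3 to 1.46e-15 for Per1. Because the fit pools the spread over genes, they do not measure each gene's own spread over the libraries.

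Dbp, a PAR bZIP activator and direct output of CLOCK and BMAL1, was at 51.6, 16.3, 54.0 and 47.7 CPM in astrocytes of ImP 3, ImP 4, vehicle 1 and vehicle 2, and at 12.7, 12.8, 10.4 and 11.4 CPM in neurons. ImP 4 stood apart, yet its astrocyte value was also above all 4 neuron values (log2 ratio 1.76 ± 0.18, SE, adjusted p = 6.90e-22). Cry2 averaged 89.7 ± 17.4 CPM in astrocytes and 35.0 ± 4.04 CPM in neurons, and Nr1d2 (REV-ERBβ) 123 ± 17.8 CPM in astrocytes and 61.3 ± 4.29 CPM in neurons (SD, n = 4 libraries each). Their log2 ratios were 1.27 ± 0.12 and 0.91 ± 0.11 (SE). Ciart, a repressor that binds CLOCK and BMAL1, was higher by a log2 ratio of 0.91 ± 0.26 (adjusted p = 0.00143).

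Cry1, the stronger cryptochrome repressor, had the weakest call, with 36.3, 21.8, 42.8 and 32.7 CPM in astrocytes against 22.8, 20.7, 24.0 and 20.1 CPM in neurons of ImP 3, ImP 4, vehicle 1 and vehicle 2. Its ranges overlapped, and its log2 ratio of 0.53 ± 0.17 (SE, adjusted p = 0.00517) did not pass without vehicle 1 (adjusted p = 0.0958), without vehicle 2 (0.0502) or under a stricter gate (0.183). Clock, whose product is the partner of BMAL1 in the activator, ran the other way. Clock averaged 77.3 ± 13.8 CPM in astrocytes and 154 ± 3.66 CPM in neurons (SD, n = 4 libraries each; log2 ratio -1.07 ± 0.11, SE, adjusted p = 1.36e-20).

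**Figure D1:**
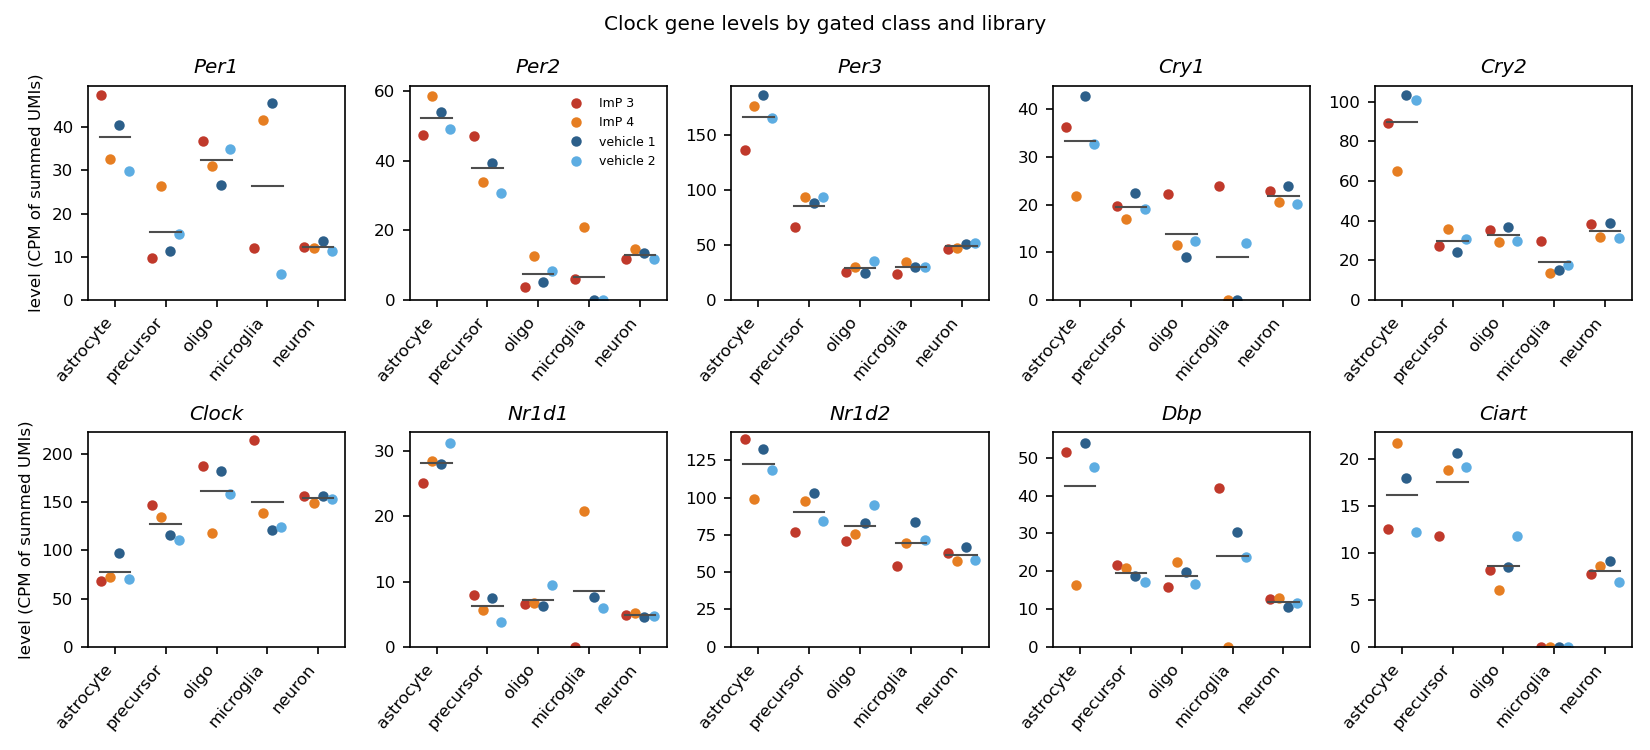
Levels of the 10 clock genes in CPM of summed UMIs (vertical axes from 0, 1 panel per gene) in astrocyte, oligodendrocyte precursor, oligodendrocyte, microglia and neuron nuclei, with 1 point per library (ImP 3, ImP 4, vehicle 1, vehicle 2 from left to right) and a bar at their mean. The astrocyte mean lies above the neuron mean for every gene except Clock, with overlapping points for Cry1. Astrocyte Dbp is at 16.3 CPM in ImP 4 but at 47.7 to 54.0 CPM in the other libraries.

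Among the other clock genes, 27 of 29 listed symbols were in the files, and in astrocytes 13 were higher and 6 lower than in neurons. Npas2, a paralog of Clock that also pairs with BMAL1, averaged 161 ± 9.37 CPM in astrocytes and 37.1 ± 2.24 CPM in neurons (SD, n = 4 libraries each; log2 ratio 2.03 ± 0.10, SE). Thus the 2 alternative partners of BMAL1 differed in opposite directions between these classes. Arntl itself was at 59.7 ± 16.1 CPM in astrocytes and 56.2 ± 1.21 CPM in neurons and did not pass. The ROR activators Rorb and Rora were higher by log2 ratios of 2.06 ± 0.08 and 1.75 ± 0.09 (SE), the E-box repressor Bhlhe40 (DEC1) by 2.50 ± 0.17 and the PAR bZIP factor Hlf by 1.82 ± 0.12. Nfil3, which competes with the PAR bZIP factors for D-boxes, had a log2 ratio of -2.99 ± 0.61, at 1.04 ± 1.33 CPM in astrocytes and 7.38 ± 0.482 CPM in neurons.

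Oligodendrocyte-gated nuclei (1059 to 1262 per library) split the period genes. Per1 was higher than in neurons, at 36.9, 31.0, 26.6 and 34.9 CPM in oligodendrocytes of ImP 3, ImP 4, vehicle 1 and vehicle 2, against 11.3 to 13.6 CPM in neurons of those libraries. Per2 was at 3.80, 12.8, 5.10 and 8.28 CPM in oligodendrocytes of the same 4 libraries, and at 11.7, 14.7, 13.4 and 11.8 CPM in neurons. The Per1 values did not overlap between the classes and the Per2 values did. The log2 ratios were 1.40 ± 0.13 for Per1 (adjusted p = 1.08e-13), -0.81 ± 0.21 for Per2 (adjusted p = 7.67e-04) and -0.77 ± 0.11 for Per3 (adjusted p = 2.51e-08; SE, edgeR quasi-likelihood test). In all 4 members were higher and 3 lower, against 62.1% of 20361 genes called in this class, 27% higher and 35% lower.

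The other higher members in oligodendrocytes were Dbp, with 18.6 ± 3.11 CPM in oligodendrocytes and 11.8 ± 1.14 CPM in neurons (SD, n = 4 libraries each; log2 ratio 0.66 ± 0.16, SE), Nr1d2 (0.41 ± 0.09) and Nr1d1 (0.58 ± 0.25, adjusted p = 0.0377). The Nr1d1 call was lost without vehicle 1 (adjusted p = 0.0663), vehicle 2 (0.261) or ImP 3 (0.0643), with no filter on low counts (0.0614) and by DESeq2 (0.0712). Cry1 was lower, by a log2 ratio of -0.66 ± 0.16. Clock, at 162 ± 31.6 CPM in oligodendrocytes and 154 ± 3.66 CPM in neurons, did not pass, and without ImP 4 it did (log2 ratio 0.20, adjusted p = 0.0389). Of the other clock genes 9 were higher and 11 lower, the lower ones including Npas2 (-3.00 ± 0.18), Rorb (-2.20 ± 0.09), Rora (-2.09 ± 0.08) and Arntl (-1.23 ± 0.11), each a log2 ratio with its SE.

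Oligodendrocyte precursors (213 to 253 nuclei per library) had 5 members higher and 1 lower than neurons, against 37.5% of 19470 genes called, 14.9% higher and 22.6% lower. Per2 was at 47.2, 33.8, 39.4 and 30.6 CPM in precursors of ImP 3, ImP 4, vehicle 1 and vehicle 2, all above the 11.7 to 14.7 CPM of neurons (log2 ratio 1.50 ± 0.22, SE, adjusted p = 3.93e-11). Ciart (1.08 ± 0.30), Per3 (0.75 ± 0.13) and Nr1d2 (0.52 ± 0.13) were also higher. The calls of Dbp (0.68 ± 0.27, adjusted p = 0.0357) and of Clock, which was lower (-0.32 ± 0.10, adjusted p = 0.00652), were less firm. Dbp was lost without any one of the 4 libraries (adjusted p 0.0624 to 0.105), with no filter on low counts (0.0618) and under the stricter gate (0.523), and Clock without vehicle 1 (0.0505) or vehicle 2 (0.0824) and with RLE scaling (0.0635) or DESeq2 (0.157). Ciart did not pass under the stricter gate (0.0653). Of the other clock genes, 9 were higher and 8 lower, among them Rora (1.14 ± 0.06), Npas2 (-2.87 ± 0.31) and Arntl (-1.50 ± 0.20).

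In microglia (76 to 128 nuclei per library) no member was called higher and 5 were called lower than in neurons. The share over all genes was 37.3% of 19381 called, 13.6% higher and 23.7% lower. Ciart had 0 UMIs of 610787 in all 4 libraries together, where 3 UMIs, or 4.91 CPM, would be the limit that a count of 0 allows, so it was at least 1.65-fold lower than the 8.09 CPM of neurons. Per3 was at 29.7 ± 4.44 CPM in microglia and 49.3 ± 2.93 CPM in neurons (log2 ratio -1.27 ± 0.32, SE). Cry2 was at 19.2 ± 7.33 CPM in microglia and 35.0 ± 4.04 CPM in neurons (-1.37 ± 0.39). Clock, also called lower (-0.55 ± 0.17), was at 150 ± 44.2 CPM in microglia and 154 ± 3.66 CPM in neurons, with overlap. The log2 ratios of the fit use TMM scaling factors, which the CPM values do not, and lay below the ratios of the CPM means. Cry1 and Clock, the remaining lower members, lost their call without vehicle 1 (adjusted p 0.0649 and 0.0573), and by DESeq2 (0.0746 and 0.143), and Clock also without vehicle 2 (0.0538), while Per2, with 4 UMIs in all, passed without ImP 4 (log2 ratio -3.06, adjusted p = 0.0181). The other 4 members (Per1, Nr1d1, Nr1d2 and Dbp) rested on 5 to 42 UMIs over the 4 libraries and did not pass. Their mean CPM was higher in microglia than in neurons, as for Nr1d2 at 69.6 against 61.3 CPM, where the fitted log2 ratio was -0.36 ± 0.24. Of the other clock genes, 5 were higher and 9 lower.

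**Figure D2:**
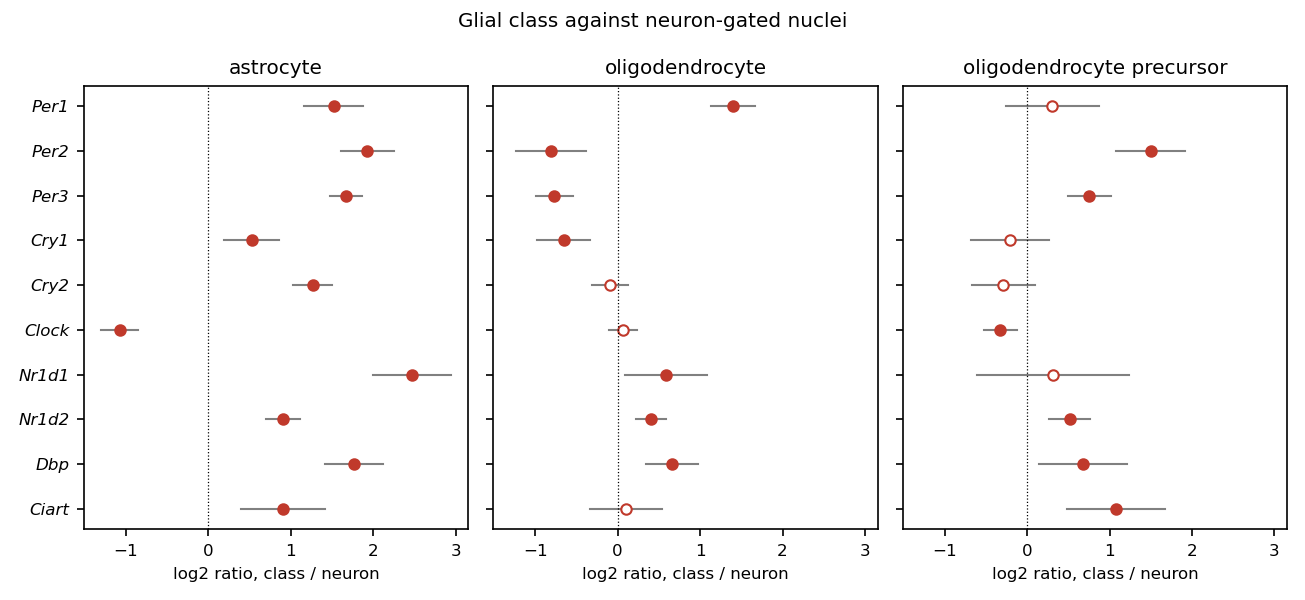
Log2 ratio of astrocyte, oligodendrocyte and oligodendrocyte precursor nuclei over neuron nuclei for the 10 clock genes, with 95% intervals (horizontal axis), filled where the adjusted p is below 0.05. Nr1d1 in astrocytes is at 2.47 and Clock at -1.07, and in oligodendrocytes Per1 at 1.40 lies on the other side of 0 from Per2 at -0.81.

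The order of the mean levels put astrocytes first for 8 of the 10 genes. For Per2 and Per3 the order ran astrocyte, precursor, then neuron with no overlap between neighbours, while oligodendrocytes and microglia overlapped each other at the low end. For Per1, astrocytes overlapped oligodendrocytes, and the other neighbours in its order overlapped too. Clock was in the order oligodendrocyte, neuron, microglia, precursor and astrocyte, with overlap between all neighbours except precursors and astrocytes. Ciart was in the order precursor, astrocyte, oligodendrocyte, neuron and microglia.

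RNA from other cells was measurable in every class. The 8 neuron markers, summed, reached 1426 to 1651 CPM in ImP astrocytes and 1101 to 1339 CPM in vehicle astrocytes, 8.85% to 13.5% of their level in neurons, and up to 16.4% in microglia, with none of the 8 at 0 in astrocytes. The 8 astrocyte markers reached 2.35% to 3.89% of their own level in neurons, with none at 0. The part of this RNA in the class differences was not tested.

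Suprachiasmatic neurons could be marked only sparsely. Among GABAergic nuclei, 19, 32, 11 and 18 nuclei of ImP 3, ImP 4, vehicle 1 and vehicle 2 carried at least 3 of 8 markers of this nucleus (Vip, Nms, Prok2, Syt10, Lhx1, Six6, Vipr2 and Grp). These 80 nuclei held 411644 UMIs. Per1, Per2, Per3, Cry1, Clock and Nr1d1 were each higher in them than in the other GABAergic nuclei of the same library in 4 of 4 libraries. That is 6 of 10 members, against 5.48% of the 11432 genes whose pooled level in the other GABAergic nuclei lay within the range of the members. In ImP 4 the margin was slight for Clock (153 against 152 CPM, on 25 UMIs) and Per3 (42.9 against 41.2 CPM, on 7 UMIs). The paired exact permutation test (two-sided, n = 4) gave p = 0.125 for each, the smallest it can give, and 0.208 after adjustment over the 10 members, so none passed.

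Nr1d1 was at 34.4, 18.4, 27.9 and 22.3 CPM in the suprachiasmatic-marker nuclei of ImP 3, ImP 4, vehicle 1 and vehicle 2, and at 4.16, 5.21, 3.76 and 5.05 CPM in the other GABAergic nuclei. These values rest on 10 UMIs in the marked nuclei, a pooled level of 24.3 CPM (95% exact Poisson interval 11.6 to 44.7, counting error only) against 4.54 CPM. Per1 was at 22.9, 36.8, 41.9 and 77.9 CPM in marked nuclei and 13.5, 12.1, 16.6 and 10.4 CPM in the others, from 18 UMIs. No marked value of Nr1d1 or Per1 overlapped an unmarked one. Cry1 pooled to 51.0 CPM in marked nuclei (31.6 to 78.0) against 22.4 CPM, and Per2 to 34.0 CPM (18.6 to 57.1) against 13.4 CPM. Cry2 was higher in 2 of 4 libraries only, at 34.0 CPM in marked nuclei (18.6 to 57.1) and 35.7 CPM in the others. Dbp and Ciart had no UMI in the 11 marked nuclei of vehicle 1 and were higher in the other 3 libraries. The marked nuclei of each group were too few for a comparison of ImP with vehicle within them.

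**Figure D3:**
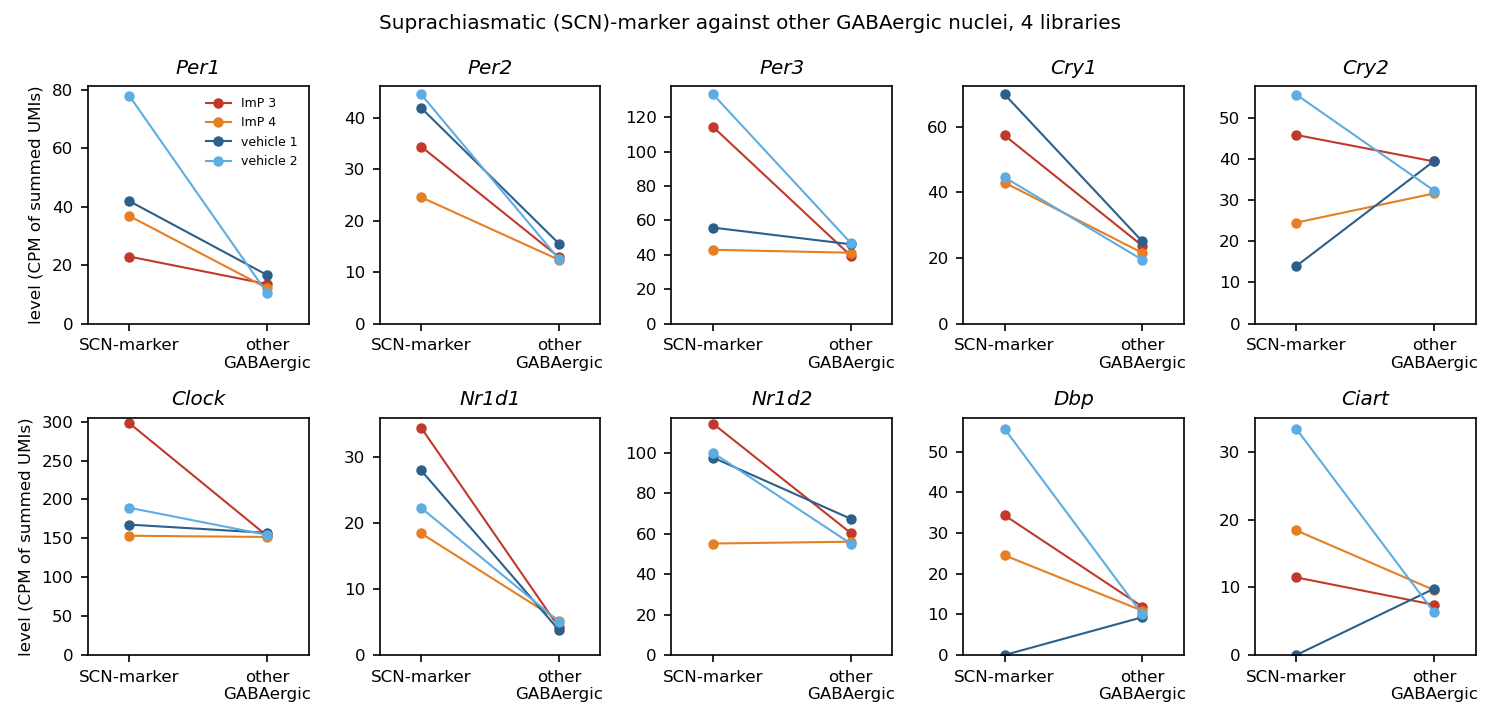
Levels of the 10 clock genes in CPM of summed UMIs (vertical axes from 0) in nuclei carrying suprachiasmatic (SCN) markers and in the other GABAergic nuclei, with a line per library. The lines of Per1, Per2, Per3, Cry1, Clock and Nr1d1 all run from a higher marked to a lower unmarked value, while Cry2 is higher in the marked nuclei of 2 libraries and lower in those of the other 2.

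ImP was then compared with vehicle within each class. No clock gene passed the threshold in any class by edgeR's quasi-likelihood test, against 0.00486% of 20568 genes called in neurons, 0% of 9446 in astrocytes, 0% of 11784 in oligodendrocytes and 0.359% of 8068 in precursors. In GABAergic and glutamatergic nuclei 0.0175% and 0.0543% passed, in microglia 0.0255%, and over all kept nuclei together 0.0047%. With the library name prefix as a block the shares were higher, at 2.38% in neurons, 2.56% in astrocytes, 4.9% in oligodendrocytes and 1.55% in precursors, and still no member passed. All 10 members were tested except in precursors (8, without Per1 and Nr1d1) and microglia (Clock and Nr1d2), where counts were too low. Unadjusted, 1 member passed 0.05 in glutamatergic nuclei, against 6.66% of all genes there. No member did so in neurons (7.36% of genes), GABAergic nuclei (7.79%), astrocytes (10.2%), oligodendrocytes (10.3%), precursors (9.31%) or microglia (9.88%), and DESeq2 called no member in any class. Without ImP 4, or without any other single library, no member passed either. The median log2 ratio of the members was 0.01 in neurons and -0.15 in astrocytes, against -0.01 and -0.00 over all genes tested.

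In neurons Dbp had the smallest p. It was at 12.7 and 12.8 CPM in ImP 3 and ImP 4, against 10.4 and 11.4 CPM in vehicle 1 and vehicle 2. Both ImP values were higher, by a log2 ratio of 0.24 ± 0.10 (SE, 95% interval -0.01 to 0.48, adjusted p = 0.696). Per3 was at 46.4 and 47.1 CPM in the ImP libraries and 51.3 and 52.2 CPM in the vehicle libraries (log2 ratio -0.13 ± 0.07, SE, interval -0.29 to 0.02, adjusted p = 0.748). Nr1d1 was at 4.90 and 5.20 CPM in the ImP libraries and 4.50 and 4.69 CPM in the vehicle libraries (0.15 ± 0.14, interval -0.18 to 0.48). For these 3 members the groups did not overlap, while the other 7 overlapped. Of all neuron genes 38.2% did not overlap between the groups, so 3 of 10 is near that background. The 8 astrocyte markers, none at 0, summed to 147 to 148 CPM in neuron nuclei of the ImP libraries, against 90.5 to 109 CPM in the vehicle libraries, and the 8 oligodendrocyte markers, none at 0, to 116 to 117 CPM in ImP, against 74.4 to 95.2 CPM in vehicle. Dbp and Nr1d1 were higher in both glial classes than in neurons. So were Per1 and Nr1d2, whose log2 ratios of ImP over vehicle in neurons were -0.015 and -0.030. Per3 was higher in astrocytes and lower in oligodendrocytes than in neurons. The part of glial transcripts in the neuron values was not tested. The intervals of the 7 members whose groups overlapped ran from -0.32 at the lowest to 0.43 at the highest.

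Glutamatergic nuclei (772 to 912 per library) gave the one member with an unadjusted p below 0.05. Per3 was at 36.8 and 36.6 CPM in ImP 3 and ImP 4, against 48.5 and 45.2 CPM in vehicle 1 and vehicle 2. Both ImP libraries were lower (log2 ratio -0.35 ± 0.12, SE, interval -0.61 to -0.08, unadjusted p = 0.0137), and after adjustment over 14740 genes it did not pass (0.530). Per3 in GABAergic nuclei was at 40.2 and 41.2 CPM in the ImP libraries and 46.2 and 47.6 CPM in the vehicle libraries (log2 ratio -0.19 ± 0.09, adjusted p = 0.695). These nuclei are subsets of the neuron class, so the values are not independent of it. In glutamatergic nuclei 5 of 10 members did not overlap between groups, 1 higher and 4 lower in ImP, against 34.7% of all genes. In GABAergic nuclei these were 3 of 10 members (Dbp higher, Per3 and Clock lower), against 37.3%. In microglia both members that were tested, Clock (higher) and Nr1d2 (lower), did not overlap, against 39.7% of the 3926 genes tested.

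In astrocytes Dbp differed between the ImP libraries themselves, at 51.6 and 16.3 CPM in ImP 3 and ImP 4, against 54.0 and 47.7 CPM in vehicle 1 and vehicle 2. Only ImP 4 was low, on 12 UMIs, and the log2 ratio of -0.58 ± 0.36 (SE, adjusted p = 0.622) became 0.01 without it. Astrocyte Cry2 was at 89.3 and 65.3 CPM in ImP 3 and ImP 4, and 104 and 101 CPM in vehicle 1 and vehicle 2 (log2 ratio -0.40 ± 0.22, adjusted p = 0.569). It was the single astrocyte member without overlap, against 40% of genes. In oligodendrocytes the largest ratio was that of Cry1, with 22.2 and 11.5 CPM in ImP 3 and ImP 4, and 9.06 and 12.4 CPM in vehicle 1 and vehicle 2 (log2 ratio 0.66 ± 0.37, adjusted p = 0.555). Its groups overlapped, and without ImP 3 the ratio was 0.11.

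Oligodendrocyte Nr1d2 was at 71.0 and 75.4 CPM in ImP 3 and ImP 4, against 83.3 and 95.2 CPM in vehicle 1 and vehicle 2 (log2 ratio -0.29 ± 0.16, adjusted p = 0.555). It and Ciart were the 2 of 10 members without overlap in this class, against 41.5% of genes. In precursors Clock, Dbp and Ciart did not overlap, 3 of the 8 members tested against 38.5% of genes, and the largest ratio, that of Ciart, was -0.36 ± 0.50. The difference of the ImP effect in a glial class from that in neurons was tested as an interaction, and no member passed, against 0.136% of genes called for astrocytes, 0.457% for oligodendrocytes and 0.0205% for precursors. The smallest p was that of Dbp in astrocytes (log2 difference -0.81 ± 0.32, unadjusted p = 0.0119, adjusted p = 0.622), which carries the ImP 4 value named above.

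**Figure D4:**
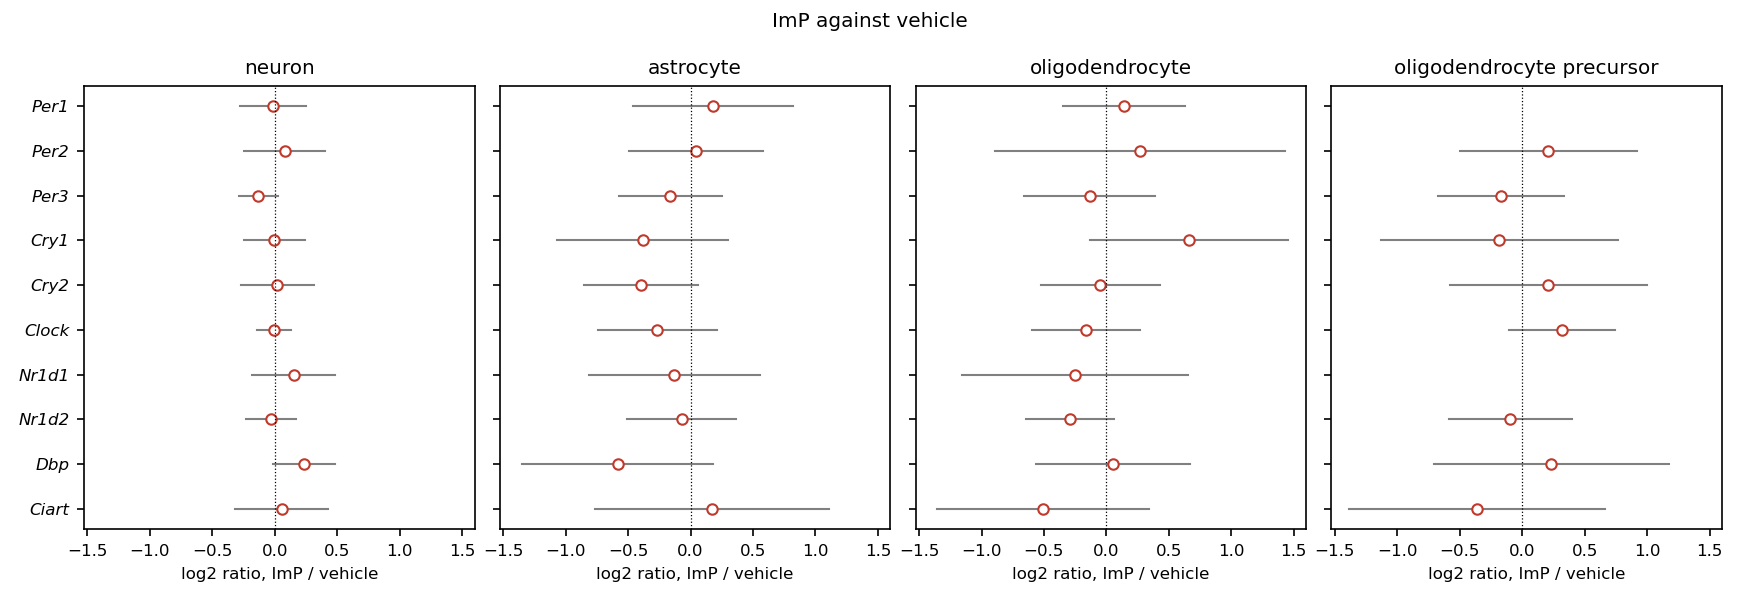
Log2 ratio of ImP over vehicle for the clock genes in neuron, astrocyte, oligodendrocyte and oligodendrocyte precursor nuclei, with 95% intervals (horizontal axis), where open points mark an adjusted p of 0.05 or more and Per1 and Nr1d1 were not tested in precursors. Every point is open, every interval includes 0, and the intervals of neurons are the narrowest.

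The other clock genes gave 0 calls for ImP in every class. Among the 3 smallest p-values of each class, Tipin, a partner of TIMELESS at the replication fork, recurred, with log2 ratios of -0.25 in neurons, -0.66 in astrocytes, -0.52 in oligodendrocytes and -0.90 in precursors (adjusted p 0.709, 0.544, 0.495 and 0.428). It was also among the 3 in glutamatergic nuclei (-0.38), but not in GABAergic nuclei or microglia. In precursors it was at 23.6 and 20.7 CPM in ImP 3 and ImP 4, against 43.1 and 40.2 CPM in vehicle 1 and vehicle 2. These classes come from the same 4 libraries.

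The relation of the period genes to Dbp and Nr1d1 was used as a check between libraries, since the clock time of sampling is not stated. Of the period genes, the order of peaks given above covers Per2 only, while the index averages all 3. For each library and class, the mean log2(CPM + 1) of Dbp and Nr1d1 was subtracted from that of Per1, Per2 and Per3. In neurons this index was 1.16 and 1.21 in ImP 3 and ImP 4, against 1.49 and 1.27 in vehicle 1 and vehicle 2, each with a counting SE of 0.07. The ImP libraries were both lower, by 0.20 on average, and the groups did not overlap. The exact permutation test (two-sided, 2 libraries against 2) gave p = 0.333, the smallest it can give. All 4 libraries lay within 0.34 of each other on this log2 scale. A rhythmic difference can take the same value at different clock times, so close values do not show a shared time of sampling.

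The sign of the difference was not shared by the classes. Astrocyte indices were 0.89 and 1.65 in ImP 3 and ImP 4 and 0.91 and 0.68 in vehicle 1 and vehicle 2, a difference of 0.47 with overlap, in which ImP 4 stood apart through its low Dbp. Oligodendrocytes gave 0.59 and 0.83 in the ImP libraries and 0.41 and 0.76 in the vehicle libraries, and precursors 1.21 and 1.90 in the ImP libraries and 1.45 and 1.96 in the vehicle libraries. In GABAergic nuclei vehicle 1 was the high library, at 1.76, against 1.25 in vehicle 2 and 1.27 and 1.17 in ImP 3 and ImP 4. Glutamatergic nuclei gave 1.11 and 1.66 in ImP 3 and ImP 4, and 1.39 and 1.33 in vehicle 1 and vehicle 2. Counting SEs outside the neuron class ran from 0.13 in GABAergic nuclei to 0.61 in precursors, where the 4 libraries spanned 0.75.

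**Figure D5:**
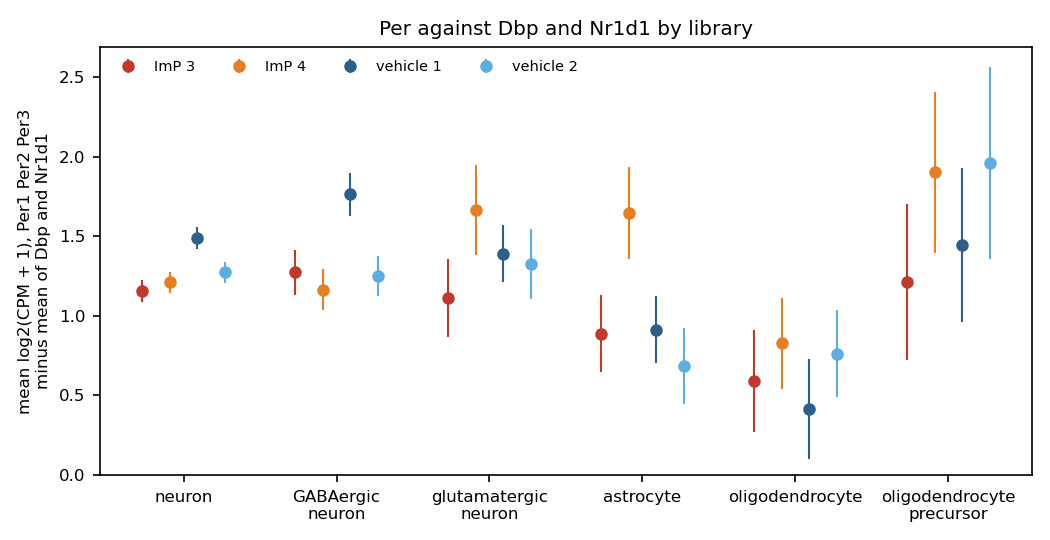
Mean log2(CPM + 1) of Per1, Per2 and Per3 minus that of Dbp and Nr1d1 (vertical axis, log2 units) per class, with 1 point per library (ImP 3, ImP 4, vehicle 1, vehicle 2 from left to right) and bars of 1 counting SE. ImP lies below vehicle in neurons, at 1.16 and 1.21 against 1.49 and 1.27, and the groups overlap in the other classes.

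Library names also fall in pairs across treatment, with prefix 113 for ImP 4 and vehicle 2 and prefix 111 for ImP 3 and vehicle 1, a prefix whose meaning the labels do not give. With treatment in the model no member passed the threshold between prefixes, against 0.282% of genes in neurons, 0.752% in astrocytes, 2.29% in oligodendrocytes and 0.235% in precursors. Unadjusted, 3 members passed 0.05 in neurons against 16.5% of genes, 4 in GABAergic nuclei against 12.7% and 1 in glutamatergic nuclei against 10.6%. In glia these were 1 member in astrocytes against 10% of genes, 2 in oligodendrocytes against 12.7%, 0 in precursors against 7.66% and 0 in microglia against 8.1%. In neurons Cry2 had the smallest p, at 31.9 and 31.2 CPM in ImP 4 and vehicle 2, against 38.3 and 38.8 CPM in ImP 3 and vehicle 1. The pairs did not overlap and the log2 ratio was -0.26 ± 0.06 (SE, adjusted p = 0.0967). It passed with RLE scaling (adjusted p = 0.0367) and with the stricter gate (0.0402). Neuron Cry1 and Nr1d2 ran the same way, by -0.18 ± 0.07 and -0.14 ± 0.05.

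In oligodendrocytes Clock was at 119 and 158 CPM in ImP 4 and vehicle 2, against 188 and 183 CPM in ImP 3 and vehicle 1 (log2 ratio -0.42 ± 0.13, SE, adjusted p = 0.0629, and 0.0453 with RLE scaling). Oligodendrocyte Per2 was at 12.8 and 8.28 CPM in ImP 4 and vehicle 2 and at 3.80 and 5.10 CPM in ImP 3 and vehicle 1 (1.23 ± 0.44, adjusted p = 0.140). Of the other clock genes, Bhlhe41 (DEC2) passed in oligodendrocytes, higher in the 113 libraries by a log2 ratio of 0.56 ± 0.16 (adjusted p = 0.0376), but not under 4 of 6 alternatives, among them DESeq2 (adjusted p 0.0242 to 1.00 over the 6). Rorb passed in GABAergic nuclei (0.28 ± 0.06, adjusted p = 0.0444) and Hlf in glutamatergic nuclei (-0.66 ± 0.15, adjusted p = 0.0336), against 0.792% and 0.624% of genes called in those classes. With treatment left out of the model no gene was called in either class, so both calls were lost. The phase index overlapped between the prefixes in neurons, where the 113 libraries averaged 1.24 and the 111 libraries 1.32, and also in glutamatergic nuclei (difference 0.24) and astrocytes (0.26). It did not overlap in GABAergic nuclei, where the 113 libraries averaged 1.21 and the 111 libraries 1.52, in oligodendrocytes (0.79 and 0.50) or in precursors (1.93 and 1.33). The 113 libraries were lower in GABAergic nuclei and higher in both of these glial classes, with 2 libraries against 2 and no test run. The nearest GABAergic values, 1.25 in vehicle 2 and 1.27 in ImP 3, had counting SEs of 0.13 and 0.14. With Nr1d2 and Ciart added to Dbp and Nr1d1, the prefixes overlapped in GABAergic nuclei but not in these glial classes. The GABAergic values were then 0.42 and 0.60 in ImP 4 and vehicle 2, against 0.55 and 0.80 in ImP 3 and vehicle 1.

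Genes whose pattern was most like that of Dbp and of Per1 were found by Pearson r over 16 values (4 libraries by neuron, astrocyte, oligodendrocyte and precursor classes), each taken as log2(CPM + 1) minus its class mean, among 8152 genes with a mean of at least 10 CPM in each class. Such r values describe the same 4 libraries and share their depth. Those of Dbp also carry its low astrocyte level in ImP 4, 16.3 CPM against an astrocyte mean of 42.4 CPM. Its SD was 1.14 CPM in neurons, 3.11 CPM in oligodendrocytes and 1.96 CPM in precursors. For Dbp the 5 highest were Zeb1 (r = 0.888), Efcab2 (0.883), Pip4k2a (0.859), Slc1a1 (0.852) and Acbd5 (0.852). For Per1 they were Chpt1 (0.882), Serpinb6a (0.849), Ogt (0.827), Kptn (0.826) and Ccndbp1 (0.826). Nr1d1 and Ciart averaged 4.82 and 8.09 CPM in neurons, and Per2 7.48 CPM in oligodendrocytes. These members fell below the minimum of 10 CPM and were not compared. No clock gene that was compared was among either 5, and Dbp and Per1 themselves had r = 0.115.

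The pituitary-marked nuclei of ImP 4, 1 library without a replicate, had Per1 at 30.5, Per2 at 25.9, Per3 at 73.0, Cry1 at 25.3, Cry2 at 44.3, Clock at 156, Nr1d1 at 14.9, Nr1d2 at 90.2, Dbp at 21.3 and Ciart at 6.90 CPM. The 8 neuron markers, none at 0, summed to 5466 to 7318 CPM in pituitary-marked nuclei of the ImP libraries. Over all libraries this was 44.8% to 72.5% of their level in neurons, and the part of RNA from neurons in these clock gene levels was not tested. These nuclei are outside the classes compared above. Pituitary hormone and regulator transcripts nevertheless reached 1647 CPM in neurons and 3995 CPM in astrocytes of ImP 4, and 28.1 and 62.8 CPM in ImP 3, against at most 14.7 and 43.9 CPM in the vehicle libraries, and their part in the ImP 4 values was not tested.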

How the data were processed

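Nuclei of mouse hypothalamus were sequenced by 10x Genomics 3′ chemistry, per the labels' protocols. The deposited files hold whole-number UMI counts per gene and barcode, made by the authors with Cell Ranger 8.0.1 on GRCm39, per the submitters' processing notes. Seurat 5.0.0 is also named there. No source used here gives the annotation release, the strand setting or the use of intronic reads. Promoter sequences come from RefSeq on GRCm38.p6, another build, so no coordinate was carried between them.

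Nuclei were kept at 500 genes and above and at up to 5% of mitochondrial UMIs. A nucleus joined a class with at least 3 of its 8 markers and at least 2 more than of any other class. The remaining nuclei stayed ungated, which leaves out nuclei with similar marker counts of several classes, and no doublet caller was run. A neuron was GABAergic with at least 2 UMIs of Slc32a1, Gad1 and Gad2 and at least 3 times those of Slc17a6, Slc17a7 and Slc17a8, and glutamatergic in the reverse case. The rule for pituitary nuclei was changed from any 3 of 8 markers, which took 6383 nuclei of ImP 4, to at least 1% of UMIs from Gh, Prl and Cga or 2 of 5 regulators (Pou1f1, Pitx1, Lhx3, Ghrhr and Tbx19). This was done after class sizes and summed clock gene counts had been seen and before any comparison. The first form is an alternative.

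Each class with at least 20 nuclei in every library was summed per library and tested with edgeR 4.0.16 (R 4.3.3), using TMM factors and quasi-likelihood tests. Genes were filtered at a minimum count of 10, and p-values were adjusted by Benjamini-Hochberg over all genes of the class, with a threshold of 0.05. The SE is the log2 ratio over the root of the test's F. The quasi-likelihood fit pools the spread between libraries over genes. For astrocytes, precursors and microglia against neurons this pooling was nearly complete. Glial classes were compared with neurons with library as a block. Scripts were tested on simulated counts. Alternatives were RLE factors, no filter, DESeq2 1.42.0, the name prefix as a block, no block, each library left out, stricter gates (4 markers and a lead of 3), at least 1000 genes, and no nuclei of the top 10% of UMIs. Members and lists were chosen with earlier results of these data known. All 10 members are named. Of the other clock genes, those past the threshold, or else the 3 of smallest p, could be named, and those named are examples of these, with Arntl added in astrocytes as the partner of Clock. Intervals cover counting error only where so stated.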

Additional observations from a re-analysis of the deposited data

Results flagged for a closer look

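Of ImP 4, 807 nuclei carried pituitary markers, against 7, 8 and 3 in ImP 3, vehicle 1 and vehicle 2, which drew attention because these nuclei enter none of the comparisons and vehicle libraries held almost none. Their clock gene levels have no replicate and were not tested.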

How the results depend on the processing

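For ImP against vehicle, no clock gene passed the threshold under any alternative in any class, while the number of genes of all kinds past it changed with the setting, and the cause was not tested. In neurons 1 gene passed, against 0 with no filter, 275 by DESeq2 and 490 with the library name prefix as a block. In GABAergic nuclei 3 passed, against 72 with no filter, 85 by DESeq2 and 403 with the block. In glutamatergic nuclei 8 passed, against 171 with no filter, 3 by DESeq2, 175 with the block, 5 without the 10% of nuclei with the most UMIs and 1 with the first form of the pituitary gate. In astrocytes 0 passed, against 242 with the block, 10 with the stricter gate, 1 at 1000 genes per nucleus, 14 without the 10% of nuclei with the most UMIs and 3 with the first pituitary gate. In oligodendrocytes 0 passed, against 180 with no filter, 16 by DESeq2 and 577 with the block. In precursors 29 passed, against 19 with RLE factors, 0 with no filter, 0 by DESeq2, 125 with the block, 18 with the stricter gate, 0 at 1000 genes and 15 with the first pituitary gate. Leaving out 1 library gave 0 to 244 genes in neurons, 0 to 753 in GABAergic, 2 to 267 in glutamatergic nuclei, 0 to 7 in astrocytes, 0 to 386 in oligodendrocytes and 6 to 118 in precursors. No paired analysis was possible because the groups share no replicate number. The block on the name prefix sets ImP 3 beside vehicle 1 and ImP 4 beside vehicle 2, though the labels do not give the meaning of the prefix. The first pituitary gate was chosen as an alternative after seeing the data.

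Between prefixes 113 and 111, neurons gave 58 genes, against 730 with RLE factors, 0 with no filter, 0 with treatment left out, 553 with the stricter gate, 232 with the first pituitary gate and 103 by DESeq2. The 1 clock gene called in neurons, with RLE factors and with the stricter gate, was Cry2, and the 1 called in oligodendrocytes, with RLE factors, was Clock. Astrocytes gave 71 genes, against 0 with treatment left out, 26 with the stricter gate and 0 by DESeq2. Oligodendrocytes gave 270, against 0 with treatment left out and 3 by DESeq2. Precursors gave 19, against 2 with RLE factors, 0 with treatment left out, 2 with the stricter gate, 4 with the first pituitary gate and 0 by DESeq2.

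Members called between glial classes and neurons numbered 9 to 10 in astrocytes, 6 to 8 in oligodendrocytes, 4 to 6 in precursors and 3 to 6 in microglia, where DESeq2 called 3 and leaving out 1 library gave 3 to 6. The precursor index difference of -0.15 became 0.34 with the stricter gate. With Nr1d2 and Ciart added to Dbp and Nr1d1 it became 0.098, and that of glutamatergic nuclei (0.03) became -0.18, while that of oligodendrocytes (0.12) became -0.016 with the stricter gate. With those genes added, the groups also ceased to overlap in GABAergic nuclei and astrocytes. GABAergic indices were 0.55 and 0.42 in ImP 3 and ImP 4, against 0.80 and 0.60 in vehicle 1 and vehicle 2. Astrocyte indices ran the other way, at 0.77 and 1.11 in ImP 3 and ImP 4, against 0.75 and 0.68. Astrocyte groups did not overlap with the stricter gate either, with ImP higher. The log2 ratios that changed sign had not passed. For ImP in neurons these were Cry1 (0.012) and Ciart (-0.010) with the first pituitary gate, and for ImP in precursors Clock (-0.067) with the stricter gate. Between classes, Nr1d1 became -0.25 in precursors and -0.44 in microglia with the stricter gate. Leaving out 1 library moved the ImP ratios in neurons across 0 for 7 members, with ranges of -0.12 to 0.10 for Per1, -0.10 to 0.24 for Per2, -0.11 to 0.11 for Cry1, -0.11 to 0.17 for Cry2, -0.027 to 0.025 for Clock, -0.11 to 0.056 for Nr1d2 and -0.12 to 0.26 for Ciart, and in astrocytes that of Dbp (-1.62 to 0.014). Against neurons it did so for Clock (-0.018 to 0.20) and Ciart (-0.18 to 0.27) in oligodendrocytes, Per1 in precursors (-0.034 to 0.49) and Nr1d1 in microglia (-0.68 to 0.70). Depth limits microglia, where all 4 libraries held 610787 UMIs, and the suprachiasmatic-marker nuclei, with 411644.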
